A study of Emberiza melanocephala with 12 samples.

Results

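The 7 genes described here belong to growth hormone and prolactin signaling, as receptor, kinase, transcription factor, feedback inhibitors and a carrier of growth factors. They are PRLR, JAK2, STAT5A, CISH, SOCS2, SOCS3 and IGFBP3, and they were chosen by symbol, as genes of this pathway to which the study had given a name. The table of expression values held 18284 genes, of which 4619 had a symbol. All 7 passed the filter on low values (FPKM above 0.1 in at least 10 of the 12 libraries), as did 9566 genes in all. FPKM is a fragment count scaled by transcript length and by the number of mapped reads. The symbols of all 7 came from the list of genes that the study called cyclic in these same libraries, and JAK2 was also in its list of genes that differed between states, so that neither a daily change in any of them nor the difference in JAK2 is independent evidence. The growth hormone receptor and STAT5B were not analysed here.

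The samples were livers of adult male blackheaded buntings (Emberiza melanocephala), wild-caught migratory songbirds that were held under artificial light. Birds in the photostimulated migratory (M) state had been photosensitive on short days and were then moved to long days (16 h light and 8 h darkness) until they were restless at night. The non-migratory (nM) birds were photorefractory and were kept on the same long days, to which they no longer responded. Each state was represented by 6 birds, 1 at each of 6 times of day: ZT1, ZT5, ZT9, ZT13, ZT17 and ZT21, in hours after lights on, of which ZT17 and ZT21 were in the dark phase. State and photoperiodic history cannot be told apart, and within a state a time of day cannot be told apart from the bird sampled at that time.

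Receptors for growth hormone and prolactin have no kinase activity of their own. When the hormone binds, the attached kinase JAK2 phosphorylates the receptor and STAT5, and STAT5 moves to the nucleus and switches on its target genes. In mammals these include CISH and SOCS2, whose proteins act back on the receptor to limit the signal, and IGF1, the main growth factor that the liver releases under growth hormone. IGFBP3 encodes a binding protein that carries insulin-like growth factors in blood. In birds prolactin is best known for its part in parental care.

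The M library of ZT17 stood apart from the rest. The sum of its FPKM values was 6.99 (in 1e6 FPKM), the sums of the other 11 libraries lay between 1.52 and 2.79, and its median rank correlation with the others over the genes tested was 0.703, against at least 0.895. It also had 1741 genes of the log2 table listed at 0. The nM library of ZT13 had 1267 such genes, and the other 10 libraries had 378 to 1004. The study reported fewer reads for the nM library of ZT13 than for any other library. A value of exactly 0 in this table need not mean that no RNA was present, since ALB, the gene of the main plasma protein made by the liver, was listed at 0 in 4 of the 12 libraries. For genes with such a value in any library, the values of single libraries, or medians and ranges, are given in place of a mean. Of 7 hepatocyte markers tested, CEBPA alone differed between states (higher in the M state), and these 7 markers summed to between 11677 and 81062 FPKM in every library. Values without the M library of ZT17 are given below where its removal moved a printed call or the median log2 fold change of a set of genes. The FPKM medians of single genes, and the ratios of these medians, include that library throughout and can shift without it.

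JAK2, CISH and SOCS2 were lower in the M state than in the nM state, and the other 4 genes did not pass the test. The log2(FPKM + 1) values were tested by limma, each state having 6 birds as replicates whatever their time of day, with Benjamini-Hochberg adjustment over all 9566 genes; a gene was called at an adjusted p below 0.1 and a log2 fold change above 0.1 in size. A log2 fold change here is the mean of log2(FPKM + 1) in the M state minus that in the nM state, and it understates the change of genes with low FPKM. Across all genes tested, 6.48% were called lower and 2.84% higher in the M state, and with every library rescaled to the same FPKM total the higher genes made up 61.1% of those called as compared with 30.5%. Against this background 3 of the 7 genes were lower and 0 were higher. The study used the same thresholds in a linear regression and named JAK2, but not CISH or SOCS2, among its differing genes. The background is not matched to the choice of the 7, which could come only from the 4070 tested genes with a symbol. Those symbols came from the study's lists of differing and of cyclic genes, and the share called among them is not given here. The median log2 fold change of the 7 was -0.66, which is the value of SOCS3, or -1.07 without the M library of ZT17. That of all genes tested was -0.08, or -0.07 without that library. In whole liver, fewer cells of a type and less RNA per cell cannot be told apart.

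**Figure D1:**
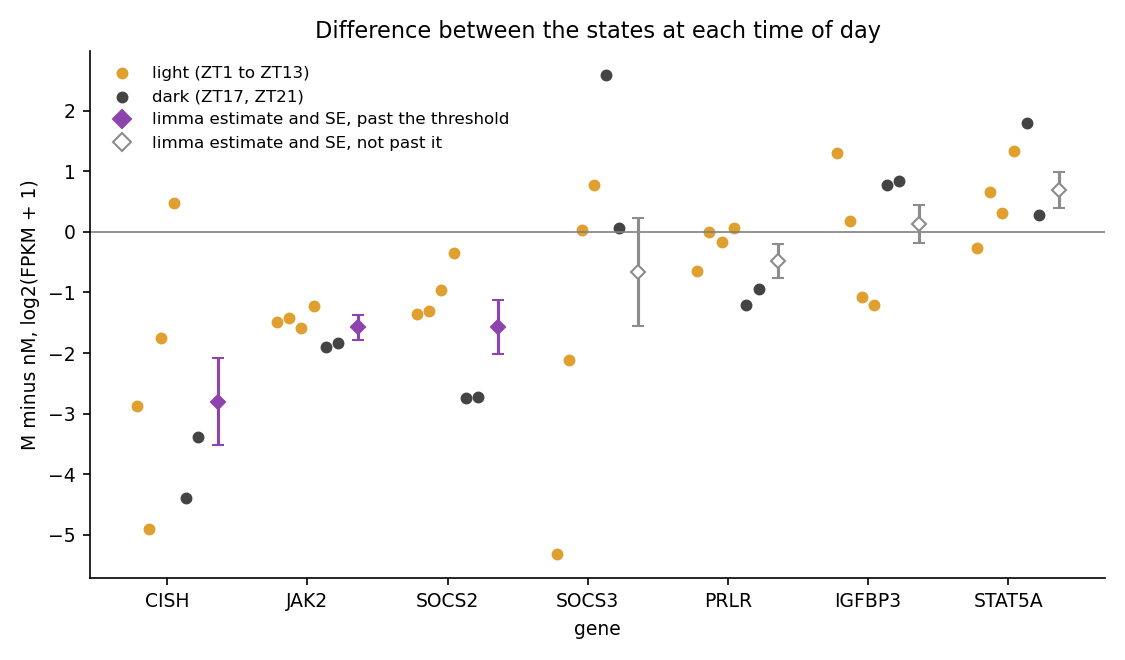
Difference between the states (M minus nM, in log2(FPKM + 1), y axis) for each gene (x axis), with 1 point per time of day, coloured by light or dark phase, and the limma estimate with its SE as a diamond, filled where it passed the threshold. All 6 points of JAK2 and SOCS2 lie below 0, CISH has 5 of 6 below 0, and the points of SOCS3 and IGFBP3 lie on both sides.

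In the M state, the order of the genes by FPKM was free of overlap only at its upper end. Reads were mapped to the genome of the zebra finch, another songbird. How this affects levels compared between genes was not tested. STAT5A had the highest median, at 62.0 FPKM, followed by CISH at 17.1 FPKM, and for each of these the lowest library lay above the highest library of the next gene in the order. SOCS2 (1.79 FPKM), JAK2 (1.02), SOCS3 (0.82), IGFBP3 (0.72) and PRLR (0.29) followed with ranges that overlapped from each gene to the next. In the nM state CISH came first with a median of 164 FPKM and STAT5A second with 44.0 FPKM, but their ranges overlapped and CISH exceeded STAT5A in only 4 of 6 libraries. All nM values of STAT5A were above all those of SOCS2, which had a median of 6.15 FPKM. JAK2 (4.86 FPKM), SOCS3 (0.96), PRLR (0.69) and IGFBP3 (0.29) came next, again with overlap between neighbours.

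**Figure D2:**
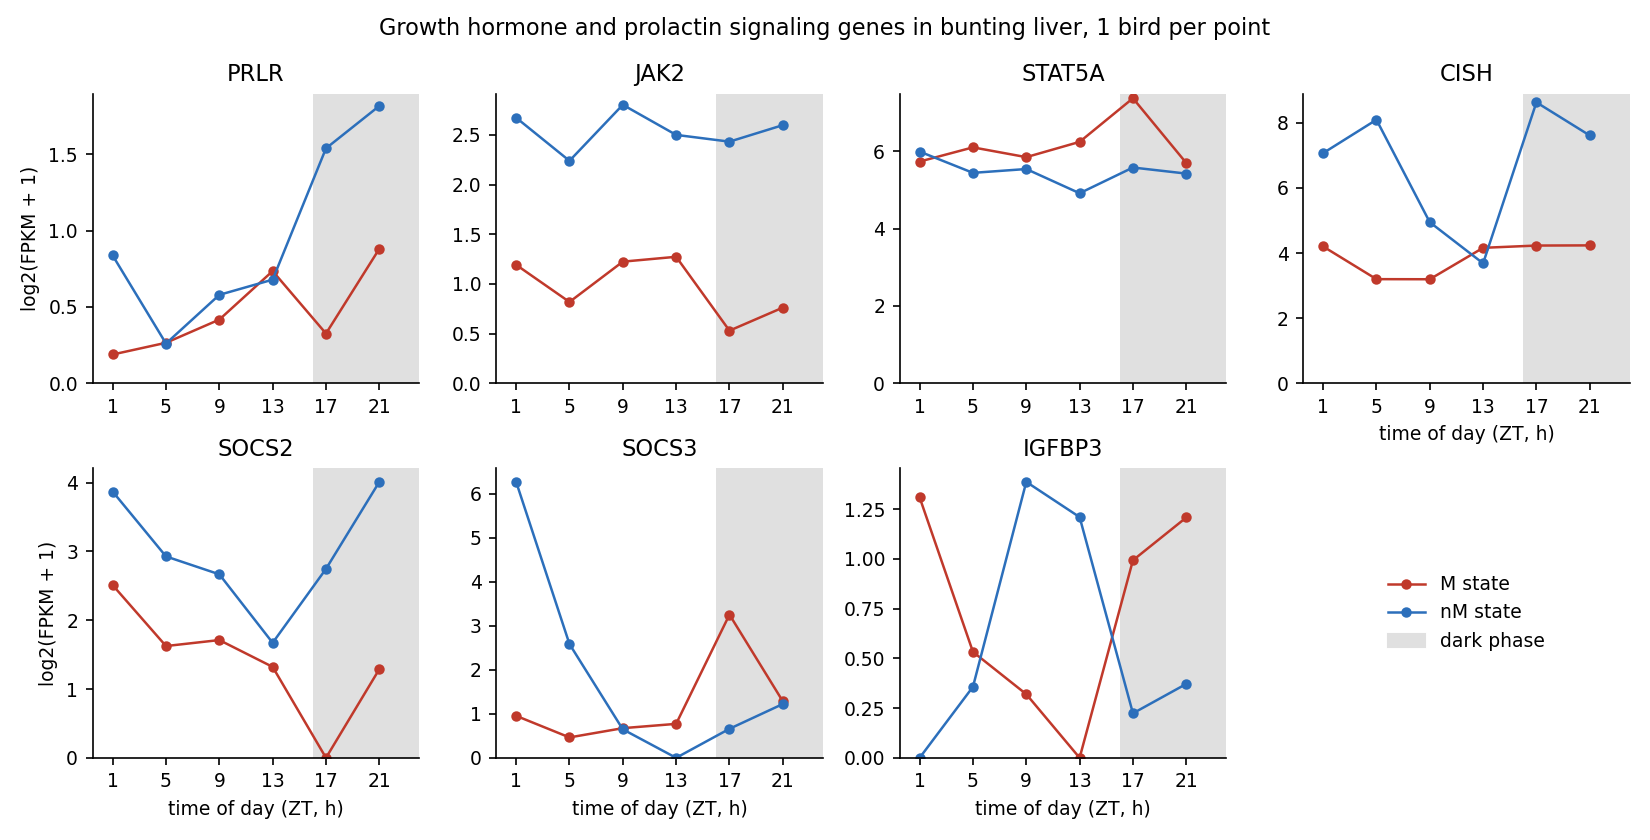
Expression of the 7 genes in log2(FPKM + 1) (y axis) at each time of day in ZT hours (x axis), with 1 bird per point, the M state in red, the nM state in blue and the dark phase shaded. JAK2 runs lower in the M state at every time, CISH in the nM state falls to 11.8 FPKM at ZT13, and the 2 curves of IGFBP3 cross.

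PRLR encodes the prolactin receptor, which also binds growth hormone in some mammals. From ZT1 to ZT21 the M libraries held 0.140, 0.202, 0.335, 0.665, 0.253 and 0.842 FPKM. In nM birds the values were 0.787, 0.198, 0.494, 0.601, 1.91 and 2.53 FPKM. The groups overlapped, the highest value of each state was at ZT21, and the M bird was below the nM bird at 4 of 6 times. The log2 fold change was -0.48 (SE 0.28, adjusted p = 0.284 by limma), which did not pass the test, and the exact two-sided permutation test of the 6 M against the 6 nM libraries gave p = 0.113. With each of the 12 libraries left out in turn the permutation p ranged from 0.0325 to 0.214. It was below 0.05 only 1 time, without the nM library of ZT5. The adjusted p by limma was 0.156 to 0.488 in these settings.

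JAK2, the kinase that serves both receptors, had the smallest SE of the 7 differences between states. The M libraries held 1.29, 0.763, 1.34, 1.42, 0.443 and 0.695 FPKM from ZT1 to ZT21. The nM libraries held 5.38, 3.72, 5.98, 4.66, 4.4 and 5.05 FPKM. Every M library was below every nM library, which was the case for 3.4% of all genes tested. The mean was 0.99 ± 0.41 FPKM in M birds as compared with 4.86 ± 0.79 FPKM in nM birds (SD, n = 6 each), and the nM median was 4.74 times the M median. The log2 fold change was -1.57 (SE 0.21, adjusted p = 0.00381 by limma). Its exact permutation p was 0.00216, the smallest that 6 against 6 libraries can give. Leaving out each library in turn gave adjusted p-values of 0.00167 to 0.0206 by limma, so no single library decided the call. The difference at single times of day ranged from -1.23 at ZT13 to -1.90 at ZT17 on the log2 scale.

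STAT5A, the transcription factor that JAK2 activates, had the opposite sign to its kinase, without passing the test. From ZT1 to ZT21 the M birds had 52.2, 67.5, 56.5, 74.6, 164 and 50.8 FPKM. In the nM state they held 62.6, 42.4, 45.5, 29.1, 46.8 and 41.8 FPKM. The M bird was above the nM bird at all times except ZT1, and the value of 164 came from the M library of ZT17. The mean was 77.7 ± 43.5 FPKM in M birds (SD, n = 6), or 60.3 ± 10.3 FPKM without that library (SD, n = 5), as compared with 44.7 ± 10.8 FPKM in nM birds (SD, n = 6). The log2 fold change was 0.68 (SE 0.30, adjusted p = 0.176 by limma). On its own, STAT5A had p = 0.0173 in the exact permutation test, and p = 0.0390 without the M library of ZT17. These p-values are not adjusted over genes, and by limma 2414 of the 9566 genes had an unadjusted p below 0.05. An exact test that flipped the signs of the 6 differences between birds of the same time gave p = 0.0625.

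CISH encodes a feedback inhibitor that STAT5 induces in mammals. In M birds the values were 17.4, 8.17, 8.15, 16.9, 17.7 and 17.8 FPKM. Those of the nM state held 133, 272, 29.8, 11.8, 394 and 194 FPKM. All M values lay within a 2.19-fold span, and the nM values spread over 33.3-fold. The nM bird of ZT13 was the only one whose value fell within the range of the M state, and there the M bird was the higher. The mean was 14.4 ± 4.8 FPKM in M birds as compared with 173 ± 147 FPKM in nM birds (SD, n = 6 each), and the nM median was 9.56 times the M median. The log2 fold change was -2.80 (SE 0.71, adjusted p = 0.0503 by limma), and the exact permutation p was 0.0108. The exact sign-flip test over the 6 times of day gave p = 0.0625. Without the nM library of ZT13 the log2 fold change was -3.40 (adjusted p = 0.0222 by limma). The call was lost without the M library of ZT5 (adjusted p = 0.118 by limma), without the nM library of ZT17 (adjusted p = 0.112 by limma) and without the nM library of ZT21 (adjusted p = 0.117 by limma), with log2 fold changes of -2.67, -2.41 and -2.61.

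SOCS2 is another feedback inhibitor, and mice that lack it grow to an unusually large size. The M libraries held 4.69, 2.08, 2.27, 1.5, 0 and 1.44 FPKM, the value listed at 0 being that of ZT17. The nM libraries held 13.6, 6.60, 5.35, 2.18, 5.71 and 15.1 FPKM. The groups overlapped, but the M bird was below the nM bird at 6 of 6 times of day, by 0.35 at ZT13 and by over 2.7 at ZT17 and ZT21 on the log2 scale. The nM median was 3.44 times the M median. The log2 fold change was -1.57 (SE 0.44, adjusted p = 0.0663 by limma), or -1.29 without the M library of ZT17 (adjusted p = 0.0676 by limma), and the exact permutation p was 0.00649. The call was less stable than that of JAK2. It was lost on leaving out any 1 of 7 libraries, namely the M libraries of ZT5, ZT13 and ZT21 and the nM libraries of ZT1, ZT9, ZT17 and ZT21, with adjusted p-values of up to 0.148 by limma. It was also lost with every library rescaled to the same total (adjusted p = 0.153 by limma).

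**Figure D3:**
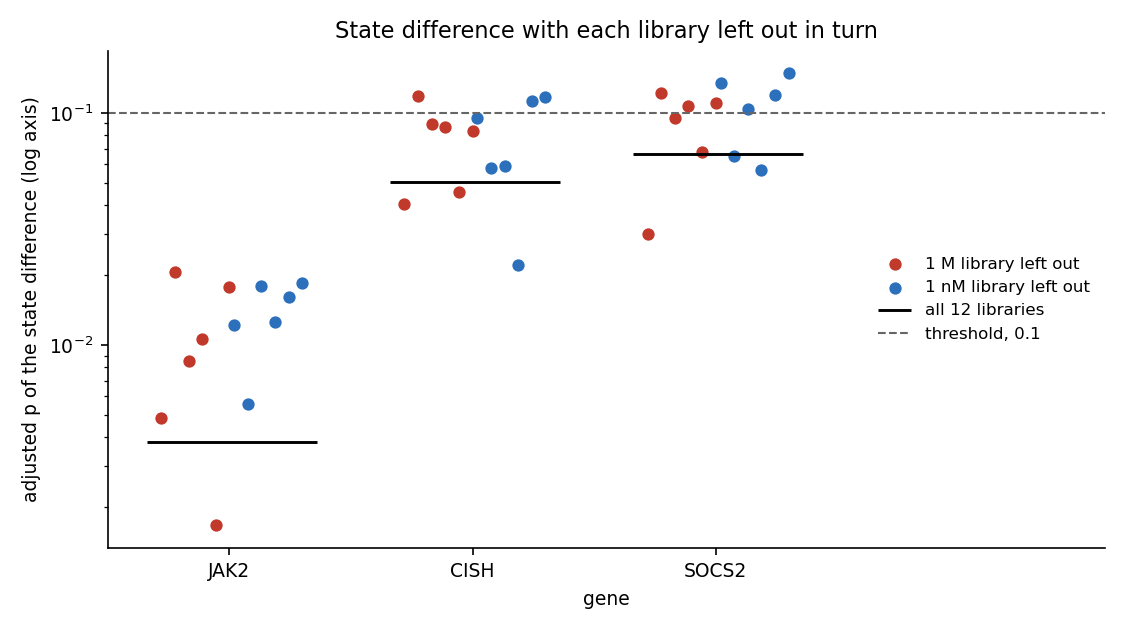
Adjusted p of the state difference by limma (log y axis) for JAK2, CISH and SOCS2 (x axis) with each of the 12 libraries left out in turn, the points coloured by the state of the library left out. The black line is the value with all 12 libraries and the dashed line the threshold of 0.1; every JAK2 point stays below it, 3 points of CISH and 7 of SOCS2 lie above it.

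SOCS3, an inhibitor induced mainly by cytokines such as interleukin-6 in mammals, had low values in most livers and high values in a few. The M libraries held 0.937, 0.379, 0.595, 0.707, 8.53 and 1.44 FPKM. The nM libraries held 76.0, 5.0, 0.566, 0, 0.579 and 1.33 FPKM. The nM bird of ZT1 and the M bird of ZT17 were the highest of their states. The log2 fold change was -0.66 (SE 0.89, adjusted p = 0.641 by limma), and it became 0.21 without the nM library of ZT1, so no direction can be given.

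IGFBP3 varied between 0 and 1.61 FPKM. The M libraries held 1.48, 0.447, 0.248, 0, 0.990 and 1.31 FPKM. The nM libraries held 0, 0.281, 1.61, 1.31, 0.168 and 0.294 FPKM. The M birds were highest at ZT1 and ZT21 and the nM birds at ZT9 and ZT13. Averaged over the day the states did not pass the test, with a log2 fold change of 0.14 (SE 0.31, adjusted p = 0.797 by limma).

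None of the 7 genes passed a test for time of day. The study called cyclic genes in each state by a rank-based method with its own threshold, so its calls and these tests are not on equal terms. A 24-h cosine shared by both states was fitted with state as a covariate, and 0.0523% of all genes were called (5 of 9566). SOCS2 came nearest to the threshold, with an amplitude of 0.80 on the log2 scale, a fitted peak at ZT1.6 and an adjusted p of 0.564 by limma. CISH had a larger amplitude of 1.07 with a fitted peak at ZT22 and an adjusted p of 0.663 by limma. For JAK2 the amplitude was 0.11 (adjusted p = 0.933 by limma). The remaining 4 genes had adjusted p-values of 0.618 to 0.996 by limma.

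The curves of the M and the nM state were then compared in 1 model, and 0% of all genes passed. Of 9566 genes, 266 had an unadjusted p below 0.05 by limma and 287 by ordinary least squares. Both counts are below the number that chance alone gives on average at that level. IGFBP3 and SOCS3 were among the 266, with amplitudes of the difference of 1.28 and 3.13 on the log2 scale (adjusted p = 0.867 for both by limma). For SOCS3, the M minus nM difference was -5.31 at ZT1 and 2.59 at ZT17 on the log2 scale. In IGFBP3 the M bird was higher at ZT1, ZT5, ZT17 and ZT21 and the nM bird at ZT9 and ZT13. Each point of these curves is a single bird.

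Night was compared with day, as ZT17 and ZT21 (4 libraries) against the other times (8 libraries), with state as a covariate, and 0.0105% of all genes passed (1 of 9566). In PRLR the dark values were 0.65 higher on the log2 scale (SE 0.25, adjusted p = 0.475 by limma). In the dark PRLR ranged from 0.253 to 2.53 FPKM and in the light from 0.140 to 0.787 FPKM, so the phases overlapped. CISH was 1.36 higher in the dark (SE 0.69, adjusted p = 0.475 by limma). In JAK2 the difference was -0.26 (SE 0.21). STAT5A, SOCS2, SOCS3 and IGFBP3 had differences of 0.29, -0.28, 0.06 and 0.06, and each of these signs turned without the M library of ZT17.

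The 7 genes did not vary as a unit. Over the 12 libraries, which differ in state and in time of day at once, the highest rank correlation was between JAK2 and SOCS2 (Spearman's rho 0.77), and it was 0.60 within the 6 M libraries and 0.03 within the 6 nM libraries. CISH and SOCS2 had rho 0.63 over all 12 libraries, -0.60 within the M state and 0.49 within the nM state. JAK2 and STAT5A had rho -0.57 over all libraries, -0.03 within the M state and 0.26 within the nM state. The highest value within the M state was that of CISH and SOCS3 (rho 0.89, and 0.49 within the nM state). Within the nM state it was that of SOCS2 and SOCS3 (rho 0.83, and -0.60 within the M state). These correlations are given as descriptions, without a test.

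The genes with a symbol whose levels ran most like each of the 7 were found by Spearman's rho over the 12 libraries among 4069 others. Those libraries differ in state and in time of day at once, and the values are descriptions without a test. A gene chosen in this way can share the state difference of the gene it is near through the choice itself. For SOCS2 the nearest were TMEM2 (0.98), IFNGR1 (0.97) and GLTSCR1L (0.96), all called lower in the M state, as SOCS2 was. Their calls were lost under 12, 1 and 0 of 20 alternatives. SOCS2 and IFNGR1 were both listed at 0 in the M library of ZT17. IFNGR1 and IFNGR2 encode the chains of the interferon gamma receptor, which signals through Janus kinases, and IFNGR2 was the second nearest to CISH (0.90), between TANC2 (0.96) and ZER1 (0.87). JAK2 ran most like SLC25A36 (0.96), FAM117B (0.95) and FGD6 (0.95), which were called lower in the M state too. These calls were lost under 2, 0 and 9 of 20 alternatives. STAT5A was nearest to C17orf71 (0.94), RNF214 (0.94) and ZGPAT (0.94). For PRLR the nearest were ORC3L (0.88), ANKRA2 (0.86) and KIF9 (0.86). For SOCS3 they were NSDHL (0.87), FBLN2 (0.87) and CUEDC1 (0.84), and for IGFBP3, TPTE (0.85), AKR1B10-3 (0.79) and MXRA7 (0.73).

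Related genes were described from 4 lists of named genes, which could hold only genes with a symbol from the study's lists. The counts of each list stand beside 6.48% called lower and 2.84% called higher in the M state among all genes tested. STAM and PPARG had a symbol only through the study's list of genes that differed between states in these libraries. IFNGR1, INSR, EGFR and CYP7B1 were in that list too, so the calls of these 6 genes are not independent evidence. Nor is the call of IL4R, which the study placed among JAK-STAT genes lower in the M state. Among 14 receptors tested that signal through Janus kinases, 3 were lower in the M state, 0 were higher and 11 did not pass. Their median log2 fold change was -0.47, or -0.41 without the M library of ZT17. IFNGR1 ranged from 0 to 31.2 FPKM (median 6.02) in the M state and from 22.8 to 85.5 FPKM (median 43.2) in the nM state (log2 fold change -2.74, SE 0.65, adjusted p = 0.0423 by limma). IL4R, the receptor chain for interleukin-4, had medians of 19.7 and 63.5 FPKM (log2 fold change -2.17, adjusted p = 0.0666 by limma). IFNGR2 had medians of 11.6 and 37.5 FPKM (log2 fold change -1.44, adjusted p = 0.0924 by limma). Without the M library of ZT5 none of these 3 receptors passed, and over the 12 libraries left out in turn IFNGR1 lost its call 1 time, IL4R 5 times and IFNGR2 8 times. With every library rescaled to the same total, IFNGR1 was the only receptor called.

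Of 11 other JAK-STAT components and regulators tested, STAM was lower in the M state and the other 10 did not pass. Among all genes tested 6.48% were called lower, so this count is near the background. The median log2 fold change of the 11 genes was -0.69, or -0.41 without the M library of ZT17. STAM is an adaptor that binds Janus kinases and sorts receptors in endosomes. It ranged from 0.451 to 6.38 FPKM in the M state and from 7.70 to 15.3 FPKM in the nM state. All its M values were below all its nM values, as in 3.4% of all genes tested. STAM had a log2 fold change of -1.50 (SE 0.34, adjusted p = 0.0379 by limma). It did not pass with equal totals (adjusted p = 0.132 by limma). JAK1, the kinase of many cytokine receptors, had 33.4 ± 13.2 FPKM in M birds as compared with 40.3 ± 4.4 FPKM in nM birds (SD, n = 6 each), and a log2 fold change of -0.40 (adjusted p = 0.429 by limma). Its lowest M value, 9.81 FPKM, was that of ZT17, and these figures include it. JAK3 and STAT6 were listed at 0 in all 12 libraries and were not tested.

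In the insulin-like growth factor axis 8 genes were tested, of which 1 was higher in M birds and 1 was lower. The median log2 fold change was -0.30, or -0.11 without the M library of ZT17. INSR, the insulin receptor, was lower, at 8.91 ± 4.17 FPKM in M birds as compared with 21.97 ± 4.21 FPKM in nM birds (SD, n = 6 each). All its M values were below all its nM values, as in 3.4% of all genes tested. INSR had a log2 fold change of -1.28 (SE 0.26, adjusted p = 0.0242 by limma), and it did not pass with equal totals (adjusted p = 0.144 by limma). IGF2BP2, which binds the mRNA of IGF2 and other genes and is not itself a growth factor or receptor, was higher in every M library, at 15.7 ± 4.5 as compared with 5.08 ± 2.05 FPKM (SD, n = 6 each). Every M library was above every nM library in 75 of the 9566 genes tested. The log2 fold change of IGF2BP2 was 1.48 (SE 0.27, adjusted p = 0.0173 by limma). IGF1 itself had 14.8 ± 11.2 FPKM in M birds as compared with 39.4 ± 27.4 FPKM in nM birds (SD, n = 6 each). Its log2 fold change of -1.29 (SE 0.51, adjusted p = 0.147 by limma) did not pass, and it passed with time of day as a block, with 24-h cosine terms, and without the M library of ZT1.

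Growth hormone or STAT5 alters the expression of a further list of genes in mouse liver, and 6 of these were tested, IGF1 among them. CYP7B1, an oxysterol hydroxylase of bile acid synthesis, was lower in every M library, with 1.85 to 34.4 FPKM as compared with 81.7 to 127 FPKM in the nM state (log2 fold change -2.84, SE 0.49, adjusted p = 0.0173 by limma). The same full separation was found in 3.4% of all genes tested. EGFR, the epidermal growth factor receptor, was lower as well, with medians of 1.65 and 7.77 FPKM (log2 fold change -1.83, SE 0.39, adjusted p = 0.0303 by limma). PPARG, a regulator of fat storage, was higher, at 11.4 ± 5.7 as compared with 3.48 ± 1.78 FPKM (SD, n = 6 each). Its log2 fold change was 1.44 (SE 0.37, adjusted p = 0.0518 by limma). BCL6, CD36 and IGF1 did not pass, with log2 fold changes of 0.96, -1.02 and -1.29. The median log2 fold change of the 6 genes was -1.16, and -0.68 without the M library of ZT17. The list was not split into genes that the hormone raises and genes that it lowers. Its median therefore gives no direction of hormone action. PPARG lost its call with equal totals and on leaving out the nM bird of ZT9, the nM bird of ZT17 or the M bird of ZT5 (adjusted p up to 0.156 by limma). None of the genes in these 4 lists was called for a 24-h rhythm or for night against day.

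**Figure D4:**
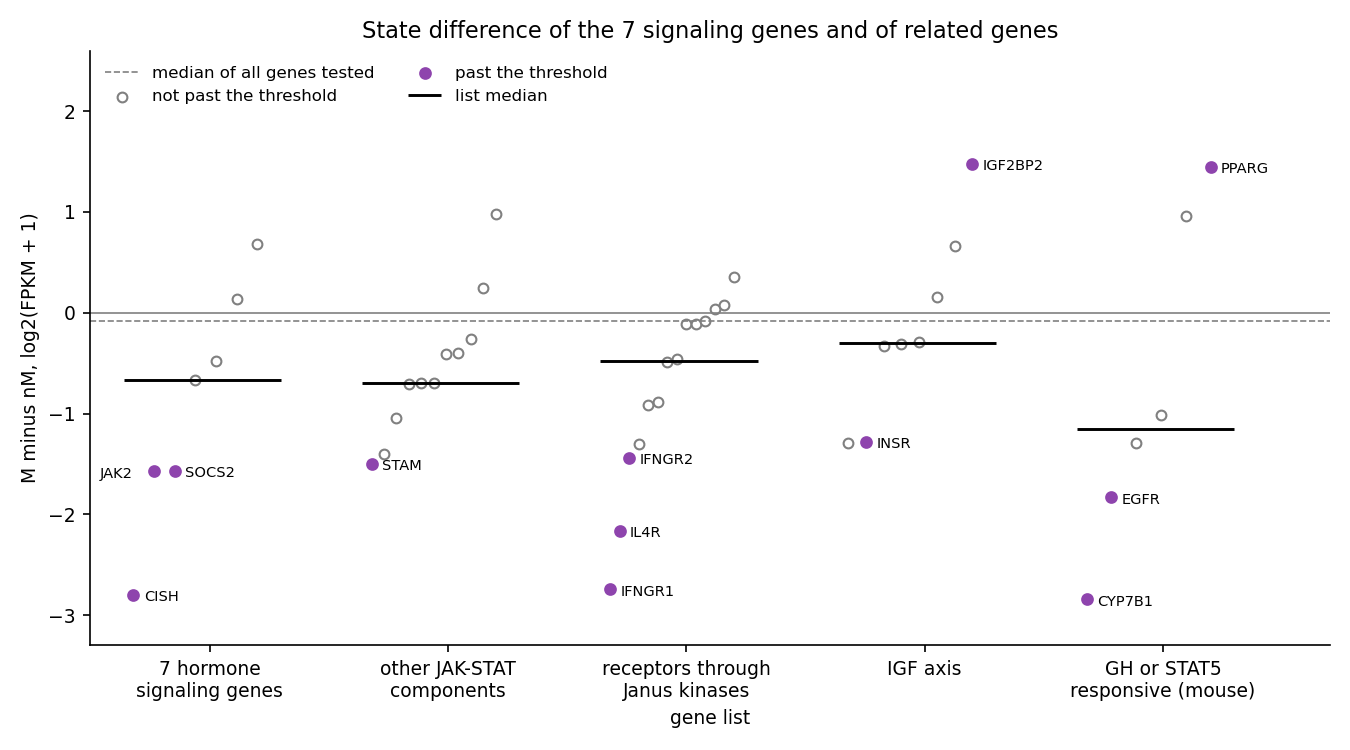
Log2 fold change between states (M minus nM, in log2(FPKM + 1), y axis) for the 7 signaling genes and for the tested genes of 4 related lists (x axis), with 1 point per gene, filled and named where it passed the threshold. Black bars are list medians, from -0.30 for the insulin-like growth factor (IGF) axis to -1.16 for genes responsive to growth hormone (GH) or STAT5. The dashed line at -0.08 is the median of all genes tested. IGF1 is plotted in both the IGF axis and the GH or STAT5 list, and the latter was not split by direction of response.

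Markers of other liver cells were set beside these values. Of 5 leukocyte and Kupffer cell markers tested, 0 passed (1 was higher in the M state without the M library of ZT17), and their summed level was 23.9 to 74.3 FPKM in the M state and 26.9 to 77.8 FPKM in the nM state. The 2 endothelial markers summed to 0.578 to 12.8 FPKM and 11.3 to 14.1 FPKM, and PTPRB was lower in the M state (log2 fold change -1.20, adjusted p = 0.0423 by limma). The 6 stellate cell and fibroblast markers summed to 69.9 to 299 FPKM and 235 to 418 FPKM, and PDGFRB was lower in the M state (log2 fold change -1.11, adjusted p = 0.0473 by limma). PTPRB and PDGFRB had a symbol only through the study's list of genes that differed between states, so their calls are not independent evidence. Both lost the call without the M library of ZT5 or with equal totals. KRT7, a bile duct marker, ranged from 13.6 to 45.8 FPKM in the M state and from 8.08 to 36.7 FPKM in the nM state. CEBPA, a hepatocyte transcription factor, was higher in the M state (log2 fold change 1.35, adjusted p = 0.0601 by limma), a call lost under 6 of 20 alternatives. No marker was listed at 0 in all libraries. The lowest sums of the leukocyte, endothelial and stellate lists were those of the M library of ZT17. The part of these markers in the differences of JAK2, CISH and SOCS2 was not tested.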

How the data were processed

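Liver RNA of 12 birds was sequenced in 1 lane as poly-A libraries with a kit that does not mark strand. The authors clipped adapters and poor-quality bases, filtered out ribosomal RNA with Bowtie2 2.0.2, mapped reads with STAR on the genome of the zebra finch, another songbird, and had Cufflinks 2.2.1 compute the deposited FPKM values. A table of log2 values was also deposited, which matched log2(FPKM + 1) to within 1e-06. Reads from near-identical copies, such as STAT5A and STAT5B, may not be told apart. The deposited values hold no read counts, and the study's read totals per library entered no test, so no counting error is given.

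Tests were run on log2(FPKM + 1), a pseudocount of 1, for genes exceeding 0.1 FPKM in 10 or more of 12 libraries, by limma 3.58.1 in R 4.3.3 across all 9566 genes. The fits were checked on simulated data whose state differences and shared rhythms were larger than those of the 7 genes. Changes of their size were not checked. Exact two-sided permutation and sign-flip tests were run for each of the 7 genes, without adjustment over them. P-values measure the spread between single birds of different times. The genes named were the 7, up to 6 called genes of each list, and the 3 named genes nearest to each of the 7; IGF1, JAK1, JAK3, STAT6, ALB, KRT7, BCL6 and CD36 were named beyond this rule, after their values were seen. The 7 genes and the lists were chosen with earlier results of these data known. Alternatives were ordinary least squares, a pseudocount of 0.1, other filters, rescaling to equal totals or upper quartiles, time of day as a block or as cosine terms, and leaving out each library. The study's own tables gave gene symbols only; their fold changes, cycle parameters and p-values were not used. No sequences are printed.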

Additional observations from a re-analysis of the deposited data

Results flagged for a closer look

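Within each state of 6 libraries, the gap of the highest or lowest library to its nearest neighbour was compared with the whole range on the log2(FPKM + 1) scale. The M library of ZT17 was far above the other 5 M libraries in STAT5A, with a gap of 0.674 of the range, and in SOCS3, with a gap of 0.706 of the range, both past Dixon's 95% critical value for 6 libraries. No other value was past it among 14 sets of 6 libraries; chance flags about 1 set in 20. STAT5A had 164 FPKM in this library and 50.8 to 74.6 FPKM in the other M libraries, and SOCS3 had 8.53 FPKM and 0.379 to 1.44 FPKM. The same library had the largest FPKM total of the 12, and its part in these values was not tested.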

How the results depend on the processing

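The state difference of JAK2 passed under all 20 alternatives. CISH passed under all alternatives except 3 libraries left out, and SOCS2 lost its call under ordinary least squares (adjusted p = 0.111 by limma without moderation), a pseudocount of 0.1 (adjusted p = 0.115 by limma), equal totals and 7 libraries left out; no alternative turned the direction of these 3 genes. The number of genes called between states was 892, 293 with equal totals (179 of them higher in M birds, 114 lower) and 200 to 1979 with a library left out. For the shared rhythm the count was 5, 1 with ordinary least squares or equal totals, 2 with the genes of the log2 table or no filter, and 2 to 37 with a library left out. For night against day it was 1, 0 under ordinary least squares, a pseudocount of 0.1, the genes of the log2 table, no filter and equal totals, 3 with equal upper quartiles, and 0 to 1 with a library left out. Equal totals moved the median night difference of all genes from -0.02 to -0.18 and equal upper quartiles to -0.14. Night differences of SOCS3 turned to -0.16 and -0.0469 and those of IGFBP3 to -0.0399 and -0.0112 with equal totals and equal upper quartiles. With a library left out, night differences ranged from -0.089 to 0.539 for STAT5A, from -0.73 to 0.18 for SOCS2, from -0.68 to 0.75 for SOCS3 and from -0.11 to 0.21 for IGFBP3, and the state difference of SOCS3 from -1.07 to 0.21. Of the 7 genes, 4 had an exact permutation p below 0.05 (JAK2, STAT5A, CISH and SOCS2), as did 4 to 5 with a library left out. In the sign-flip test 2 did (JAK2 and SOCS2), and its smallest possible p is 0.0312. The permutation test was run for the 7 genes only, so its share over all genes is not known. By limma, 2414 of the 9566 genes had an unadjusted p below 0.05 between states. The causes of these changes were not tested. The M and nM libraries of a given time came from different birds, so that pairing rests on the hour of sampling. Time of day as a block changed none of the calls of the 7 genes. With 1 bird per state and time and no counts, differences of genes near 0 FPKM are the least certain.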

Other observations

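In the nM bird of ZT13 several genes of the pathway were at their lowest nM value at once, a pattern noticed after the values were seen. The share of all genes tested that had their nM minimum in that bird is not given here. Whether the pattern is particular to the pathway was therefore not tested. CISH (11.8 FPKM), SOCS2 (2.18 FPKM), STAT5A (29.1 FPKM) and SOCS3 (listed at 0) all had their nM minimum in this bird, and IGFBP3, at 1.31 FPKM, its second highest nM value. JAK2, at 4.66 FPKM, and PRLR, at 0.601 FPKM, were near the middle of their nM values. Within the 6 nM libraries IGFBP3 had Spearman's rho of -0.66 with STAT5A, -0.60 with CISH, -0.54 with SOCS2 and -0.77 with SOCS3. Within the 6 M libraries these values were -0.54, 0.66, 0.09 and 0.54. They are descriptions of single birds without a test. This library had 1267 genes of the log2 table listed at 0, more than any other except the M library of ZT17 (1741). It was also the library with the fewest reads in the study's account. The part of either in the low values was not tested.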
